A study of Mus musculus with 4 samples.

Results

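The AP-1 and Egr immediate early factors were examined as 15 probe sets of 10 genes, out of 45101 probe sets and 18193 genes with a probe set of their own on the array. The genes were the Fos family (Fos, Fosb, Fosl1 and Fosl2), the Jun family (Jun, Junb and Jund), the zinc finger genes Egr1 and Egr2, and Ier2, and every probe set that the platform annotation pairs with exactly 1 of these symbols was taken. The family was chosen from measured values of the same comparison reported below, so its differences are a description and carry no test. RNA came from the mouse embryonal carcinoma line F9 and was hybridised to 4 Affymetrix mouse 430 2.0 arrays. In the shPhf19 group (2 arrays) the cells had been infected with a pLKO.1 lentivirus carrying a short hairpin RNA against Phf19, a Polycomb-like partner of Polycomb repressive complex 2. In the shVector group (2 arrays) they had been infected with the pLKO.1 vector control. Both groups therefore carry a lentiviral insertion and went through puromycin selection. The comparison asked which transcripts differ when Phf19 is knocked down. The sources used here do not give the number of hairpin sequences, or say whether a line was 1 clone or a pool.

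Fos and Jun proteins are leucine zipper transcription factors that pair to form AP-1. Fos family proteins bind DNA only as partners of Jun family proteins, whereas Jun proteins can also pair with each other. Fos, Fosb, Junb, Jun, Egr1, Egr2 and Ier2 are immediate early genes, which growth factors, serum and stress switch on within minutes, without new protein synthesis, through MAP kinases and the serum response factor SRF. Undifferentiated F9 cells are known for low AP-1 activity and little Jun, and Jun is induced when they differentiate.

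The 4 genes Fos, Fosb, Jun and Junb hold the largest fall, the rise and a neighbour with little difference. Their promoter stretches are shown for that reason. Each is the 250 bases before the annotated start, from RefSeq (build GRCm38.p6), 5′ to 3′ on the strand of the gene. Capitals mark matches on either strand to the CRE core TGACG, the CRE variant TGACATCA, the Egr site GCGNGGGCG and the TATA box TATAAA.
Fos, chr12:85473640-85473889, plus strand: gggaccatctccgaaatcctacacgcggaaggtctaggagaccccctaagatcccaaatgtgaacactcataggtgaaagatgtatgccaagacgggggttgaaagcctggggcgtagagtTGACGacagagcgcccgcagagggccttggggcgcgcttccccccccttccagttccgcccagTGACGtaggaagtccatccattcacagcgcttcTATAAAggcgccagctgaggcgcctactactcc
Fosb, chr7:19310046-19310295, minus strand: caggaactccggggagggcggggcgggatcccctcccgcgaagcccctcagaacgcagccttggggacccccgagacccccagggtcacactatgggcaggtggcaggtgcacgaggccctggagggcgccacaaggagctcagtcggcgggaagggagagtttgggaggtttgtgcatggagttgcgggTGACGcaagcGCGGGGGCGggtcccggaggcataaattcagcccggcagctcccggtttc
Jun, chr4:95052223-95052472, minus strand: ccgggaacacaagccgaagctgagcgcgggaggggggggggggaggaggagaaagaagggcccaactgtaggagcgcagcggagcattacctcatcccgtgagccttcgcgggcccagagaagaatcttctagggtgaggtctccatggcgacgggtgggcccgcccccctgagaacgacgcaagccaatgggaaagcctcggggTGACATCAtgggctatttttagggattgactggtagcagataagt
Junb, chr8:84978749-84978998, minus strand: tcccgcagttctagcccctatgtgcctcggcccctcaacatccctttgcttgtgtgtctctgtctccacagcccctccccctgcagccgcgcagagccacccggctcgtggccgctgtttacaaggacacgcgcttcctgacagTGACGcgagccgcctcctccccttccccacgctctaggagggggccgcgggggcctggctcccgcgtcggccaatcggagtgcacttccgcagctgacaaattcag

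The Fos stretch held the CRE core at positions -129 and -66 before the start and a TATA box at -33, the Junb stretch held the core at -106, and the Fosb stretch held it at -60 beside an Egr site at -50. The core is the first 5 letters of the full CRE TGACGTCA, so every full CRE is also a core match. The Jun stretch held TGACATCA at -45 and no core. Among 32851 promoter stretches of the same length, 17.8% held the CRE core, 2.93% TGACATCA, 4.70% the Egr site and 12.4% the TATA box. The full CRE (1.55% of stretches), the AP-1 site TGANTCA (6.75%) and the CArG box bound by SRF (1.47%) were also searched and had no match in these 4 stretches. Elements outside the 250 bases were not searched, so a missing match does not mean that the gene lacks the element. A CArG box was matched in 4 of the 5 annotated stretches of Egr2, some of which overlap. Some of these Egr2 stretches also held the CRE core. The Fosl2 stretch held an Egr site at -79, and the Jund stretch held none of the motifs searched. Promoter entries were matched for 7 of the 10 genes. Fosl1, Egr1 and Ier2 have none shown. These matches are letters in a window and say nothing of binding in F9 cells.

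Of the 15 probe sets, 1 was called higher and 1 lower in shPhf19 cells, where called means an adjusted p under 0.05 in limma fitted over all probe sets. Over all 45037 probe sets tested, 0.830% were called higher and 0.582% lower. Taking each gene by its brightest probe set, 1 of 10 genes was called higher and 1 lower, against 1.15% and 0.863% of all genes. In 3 of the 15 probe sets both shPhf19 arrays lay above both shVector arrays, and in 6 both lay below. Over all probe sets these shares were 19.4% and 21.0%. By brightest probe set, 1 gene lay above and 5 below in this way, against 21.3% and 22.2% of all genes. The log2 change (shPhf19 minus shVector) was below 0 in 11 of the 15 probe sets and had a median of -0.10, beside -0.01 over all probe sets. Since these values chose the family, nothing is read from the counts.

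**Figure D1:**
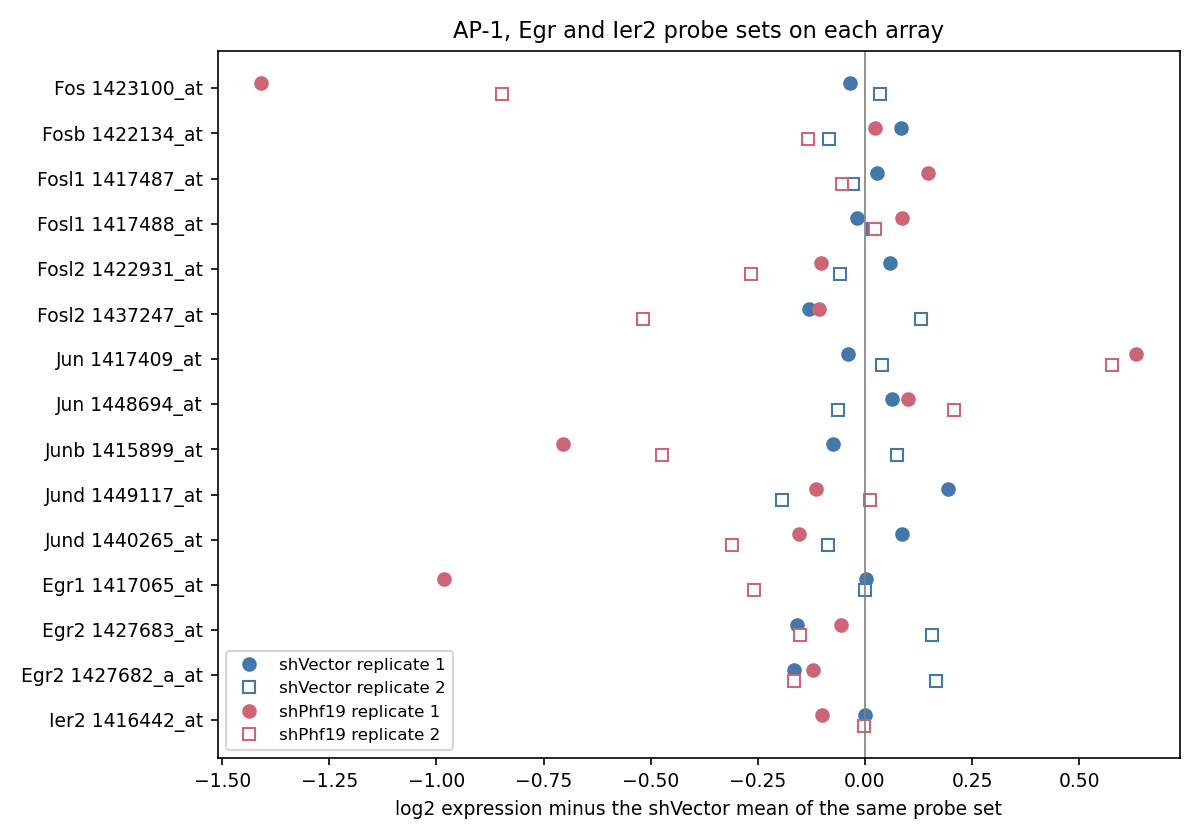
Each point is the log2 expression of 1 probe set on 1 array minus the mean of the 2 shVector arrays for that probe set; circles are replicate 1 and open squares replicate 2. Fos, Junb and Egr1 lie to the left on both shPhf19 arrays, Jun 1417409_at lies to the right on both, and Fos and Egr1 are lower on shPhf19 replicate 1 than on replicate 2.

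Fos, the founding member of its family and the partner that with Jun makes the classical AP-1 dimer, had the largest change of the family. Its single probe set 1423100_at read 8.87 and 8.94 on the log2 scale on the shVector arrays and 7.50 and 8.06 on the shPhf19 arrays. Both shPhf19 arrays were lower than both shVector arrays, and the shPhf19 arrays were much further apart than the shVector arrays. The group means were 8.91 ± 0.05 (SD, n = 2) and 7.78 ± 0.40, a log2 change of -1.13 ± 0.17 (SE from limma), or 45.8% of the control signal. The call rested on all 4 arrays and on the variance model, since it was also lost without an intensity trend in limma's variance. The log2 change of Fos was -1.16 or -1.09 when shVector replicate 1 or 2 was left out, and -0.85 or -1.41 when shPhf19 replicate 1 or 2 was left out. None of these fits called Fos or any other probe set. 

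The other Fos family genes showed much smaller differences. Fosb, which like Fos carries a transactivation domain, read 3.97 and 3.80 in shVector and 3.91 and 3.75 in shPhf19 on the log2 scale. Fosl1, which encodes Fra-1, read 4.19 and 4.13 in shVector and 4.30 and 4.10 in shPhf19 by its brighter probe set 1417487_at. The groups overlapped in both of these probe sets, with log2 changes of -0.05 ± 0.11 (SE) for Fosb and 0.05 ± 0.11 for Fosl1. The second Fosl1 probe set, 1417488_at, read 3.73 and 3.77 in shVector and 3.84 and 3.775 in shPhf19. Its groups were barely apart, with a log2 change of 0.06 ± 0.09, and it was not called.

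Fosl2 encodes Fra-2. On the log2 scale, its probe set 1422931_at read 5.82 and 5.70 in shVector and 5.66 and 5.49 in shPhf19. The groups were just apart there, with a log2 change of -0.18 ± 0.11 (SE). By 1437247_at Fosl2 read 4.08 and 4.34 in shVector and 4.10 and 3.69 in shPhf19, so the groups overlapped, with a log2 change of -0.31 ± 0.16. Neither probe set was called.

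Jun was the member called higher, by 1 of its 2 probe sets. Its protein is the most potent transactivator of the Jun family. On the log2 scale, probe set 1417409_at of Jun read 6.91 and 6.99 in shVector and 7.58 and 7.52 in shPhf19. The replicates of each group lay close together and the groups did not overlap. The means were 6.95 ± 0.06 (SD, n = 2) and 7.55 ± 0.04, a log2 change of 0.60 ± 0.09 (SE), or 1.52-fold. The dimmer Jun probe set 1448694_at read 5.13 and 5.003 in shVector and 5.17 and 5.27 in shPhf19. Its groups were also apart in the same direction, but the log2 change was only 0.15 ± 0.10 and was not called. The log2 change of Jun by 1417409_at was 0.57 or 0.64 when shVector replicate 1 or 2 was left out, and 0.58 or 0.63 when shPhf19 replicate 1 or 2 was left out, with no call in any of these fits. The positions of the probes along the Jun transcript were not analysed here.

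Junb, a weaker transactivator that can restrain Jun, lay on the other side of 0. On the log2 scale its probe set 1415899_at read 6.97 and 7.12 in shVector and 6.34 and 6.57 in shPhf19. Both shPhf19 arrays were below both shVector arrays, with shPhf19 replicate 1 the lowest. The means of Junb were 7.05 ± 0.10 (SD, n = 2) and 6.46 ± 0.16, a log2 change of -0.59 ± 0.11 (SE), or 66.5% of control. This was not called over all probe sets, and it was called when the 50% of probe sets with the lowest mean were left out.

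Jund, the Jun gene that most cells express steadily and that responds little to serum, read 10.04 and 9.66 in shVector and 9.74 and 9.86 in shPhf19 by probe set 1449117_at on the log2 scale. The shVector arrays enclosed the shPhf19 arrays, and the log2 change was -0.05 ± 0.13 (SE). The change of this Jund probe set turned to 0.14 without shVector replicate 1 and to 0.01 without shPhf19 replicate 1. Its dimmer probe set 1440265_at was at -0.23 ± 0.11 with the groups apart. Neither was called.

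Egr1, a zinc finger factor induced by growth factors through SRF, read 11.27 on both shVector arrays and 10.29 and 11.01 on the shPhf19 arrays on the log2 scale. Both shPhf19 arrays were below the controls, and shPhf19 replicate 1 stood far below replicate 2. The means of Egr1 were 11.27 ± 0.0019 (SD, n = 2) and 10.65 ± 0.51, a log2 change of -0.62 ± 0.21 (SE), or 65.0% of control, without a call. The size of this change depended on which shPhf19 array was kept, at -0.26 without shPhf19 replicate 1 and -0.98 without shPhf19 replicate 2.

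Egr2, also known as Krox20 and needed in the hindbrain and in Schwann cells, read 3.72 and 4.04 in shVector and 3.82 and 3.73 in shPhf19 by probe set 1427683_at on the log2 scale. Its groups overlapped, at a log2 change of -0.10 ± 0.13 (SE), and the second Egr2 probe set 1427682_a_at was at -0.14 ± 0.13. Ier2, a short-lived nuclear protein gene induced together with Fos, read 12.36 and 12.35 in shVector and 12.25 and 12.35 in shPhf19. The Ier2 values differed by little on all 4 arrays, with a log2 change of -0.05 ± 0.05. Ier2 counted among the genes with both shPhf19 arrays below both shVector arrays, although replicate 2 read 12.354 in both groups. The 5 probe sets of Fosb, Fosl1 (1417488_at), Fosl2 (1437247_at) and Egr2 with a mean signal below the 25th percentile of all probe sets may read background, because the table holds no detection calls.

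**Figure D2:**
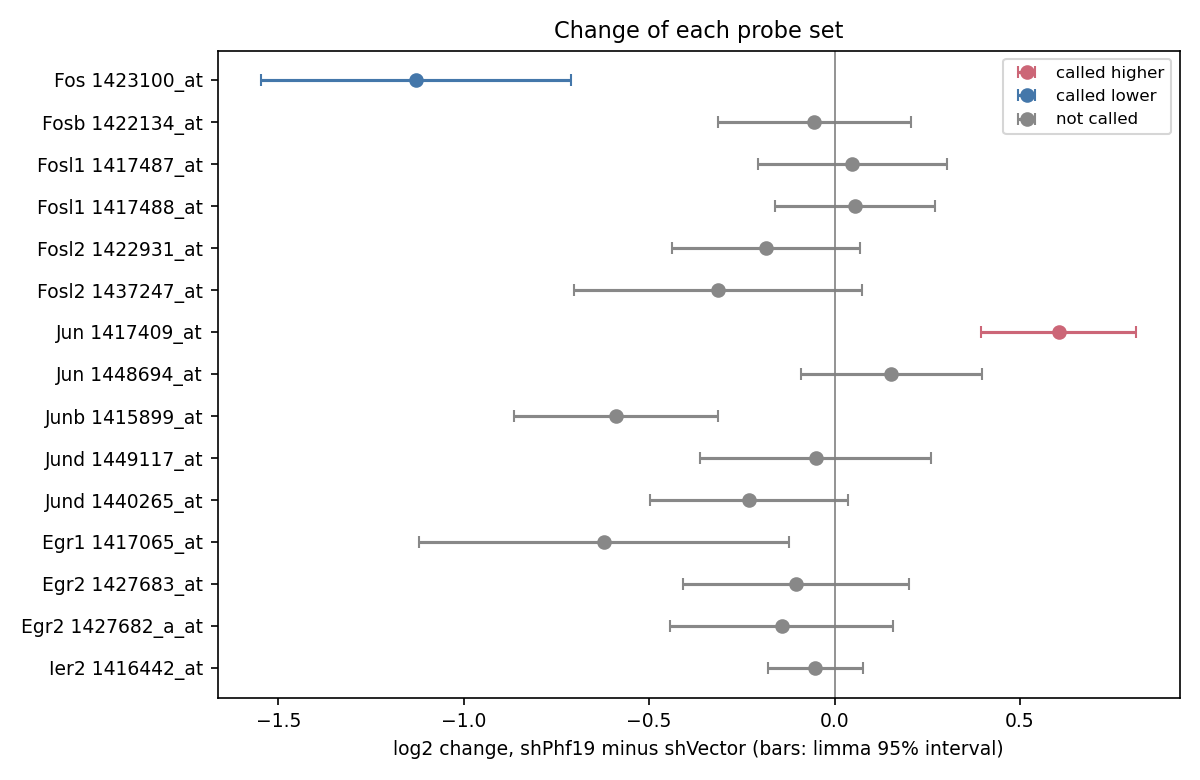
Points are the log2 change of each probe set, shPhf19 minus shVector, and bars the 95% interval from limma before any adjustment. Fos at -1.13 is the probe set called lower and Jun 1417409_at at 0.60 the one called higher; Junb at -0.59 and Egr1 at -0.62 were not called.

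The replicate arrays within a group were compared next. This is another difference than the one the family was chosen on, but it was read from the same arrays and is not independent of that choice. Egr1 and Fos are named first because their shPhf19 gaps were the largest of the family. Their ranks among all probe sets are therefore a description and carry no test. Between the shPhf19 arrays, Egr1 differed by -0.72 and Fos by -0.56 (log2, replicate 1 minus replicate 2). Of all 45037 probe sets, 10 had a gap at least as large as that of Egr1 between these arrays, Egr1 included, and 90 at least as large as that of Fos. None of the other 9 was among the 2883 probe sets at least as bright as Egr1. Between the shVector arrays the gaps were 0.0027 for Egr1 and -0.07 for Fos, and 98.0% and 68.5% of all probe sets had a gap at least as large there. The third largest gap of the family ran the other way: Fosl2 1437247_at was at 0.41, which 1.38% of probe sets reached. Junb (-0.23), Jund 1449117_at (-0.12) and Ier2 (-0.10) were lower on shPhf19 replicate 1, gaps that 11.6%, 35.6% and 45.9% of probe sets reached. The Jun probe sets were at 0.06 (1417409_at) and -0.11 (1448694_at).

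Of the 10 genes, 5 were lower on shPhf19 replicate 1 than on replicate 2, beside 50.4% of all genes. Among 32 other immediate early genes 19 were lower there, with a median difference of -0.02 (log2), and among 19 known AP-1 target genes 14 were, with a median of -0.03. Among 10 heat shock genes, which handling of cells can induce, 4 were lower, with a median difference of 0.03. Between the shVector arrays, 9 of the 10 heat shock genes were lower on replicate 1 (median -0.05), beside 45.9% of all genes. The log2 difference of 3′ over 5′ signal reads RNA integrity. For beta-actin it was 0.922 and 1.03 on shPhf19 replicates 1 and 2 and 1.16 and 0.834 on shVector replicates 1 and 2. That of Gapdh was 0.334 and 0.405 in shPhf19 and 0.510 and 0.264 in shVector. The shPhf19 arrays thus lay between the shVector arrays in both readings. The part of culture or handling in the gap of Egr1 and Fos was not tested.

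**Figure D3:**
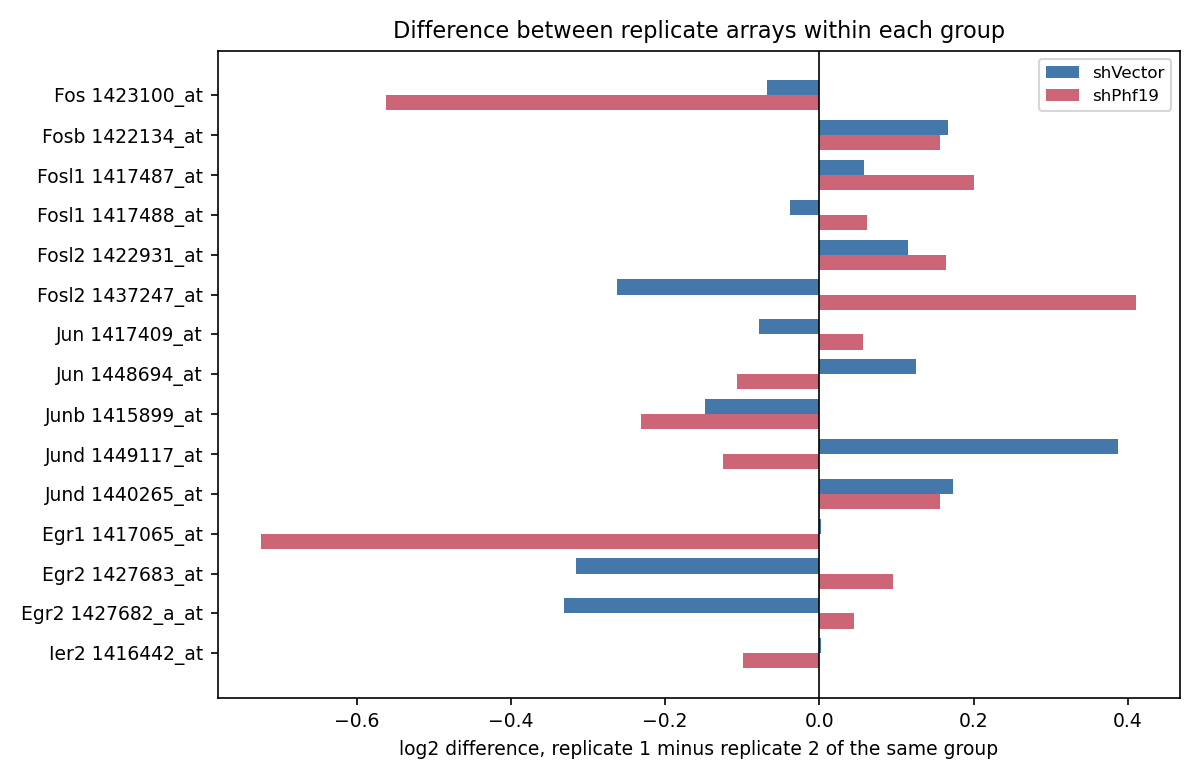
Bars are the log2 difference between the replicate arrays of a group, replicate 1 minus replicate 2, for each probe set. The longest shPhf19 bars are those of Egr1 at -0.72 and Fos at -0.56, whose shVector bars are 0.0027 and -0.07.

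The proteins and kinases around the family were then examined in the same fit. Over all genes, by brightest probe set, 1.15% were called higher (rose) and 0.863% lower (fell). Of 21 measured genes of other AP-1 and CREB/ATF leucine zipper factors, 1 fell and none rose, with a median log2 change of -0.04 beside -0.0028 over all genes. The one that fell was Jdp2, which encodes a repressor that dimerises with Jun (log2 change -0.44 ± 0.06 SE, limma adjusted p = 0.0264, lower on both shPhf19 arrays). Its second probe set 1424972_at was at -0.05 ± 0.09 and did not pass. Atf3, a stress-induced member of the group named after its values were seen, was at -0.41 ± 0.09 (limma adjusted p = 0.113), with both shPhf19 arrays lower.

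Of 32 other immediate early genes, 1 rose and none fell, with 18 above and 14 below 0 and a median log2 change of 0.01. Phlda1, a growth factor-induced gene, rose by 0.68 ± 0.10 (SE; limma adjusted p = 0.0324). Arc and Rhob, named after their values were seen, were at -0.45 ± 0.09 (limma adjusted p = 0.087) and -0.45 ± 0.11 (limma adjusted p = 0.159). In the other direction, Ccn2 was at 0.48 ± 0.12 (limma adjusted p = 0.149) and Btg2 at 0.30 ± 0.08 (limma adjusted p = 0.184), also named afterwards. The orphan receptor gene Nr4a1 (0.16 ± 0.06) and the phosphatase gene Dusp1 (-0.15 ± 0.09), induced with Fos in many cells and also named afterwards, did not pass. In the list 8 genes had both shPhf19 arrays above and 8 below both shVector arrays, beside 21.3% and 22.2% of all genes.

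In the relatives and corepressors of Egr1, none of 5 passed with limma's adjusted p. Nab1, whose protein represses Egr factors, was at 0.40 ± 0.07 (log2 change ± SE; limma adjusted p = 0.0674), while its other probe sets were at 0.07 ± 0.10 and -0.03 ± 0.10. Wt1, a zinc finger gene related to the Egr genes, was at 0.99 ± 0.25 (limma adjusted p = 0.157), with 4.77 and 5.61 in shVector and 6.24 and 6.12 in shPhf19 on the log2 scale. Of 14 genes of SRF, its cofactors and CREB coactivators, 1 rose, with a list median of 0.01. It was Elk3, an Ets factor that binds beside SRF (0.53 ± 0.08, limma adjusted p = 0.0404). None of the other 3 Elk3 probe sets passed, with changes of 0.28, 0.07 and 0.08. Srf itself, named afterwards, was at -0.11 ± 0.07.

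The list of ERK feedback and output genes showed the highest median among these pathway lists. Of 12 measured feedback and output genes of ERK, 2 rose and none fell, beside 1.15% and 0.863% of all genes. In this list 9 were above 0, and the median log2 change was 0.15. Dusp4 and Dusp6 encode phosphatases that inactivate ERK. Dusp4 read 7.09 and 7.04 in shVector and 8.03 and 7.81 in shPhf19 on the log2 scale, a change of 0.86 ± 0.10 (SE; limma adjusted p = 0.018). Dusp6 read 11.34 and 11.56 in shVector and 12.07 and 11.98 in shPhf19, a change of 0.57 ± 0.08 (limma adjusted p = 0.0321). Both had both shPhf19 arrays above both shVector arrays. This held for 8 of the 12 genes in all and was reversed in 2, beside 21.3% and 22.2% of all genes. Of 17 measured genes of the MAP kinase cascade none passed limma's adjusted p, with a median of -0.01. The kinase genes with the smallest p there were Rps6ka3 (-0.37 ± 0.07, limma adjusted p = 0.0674) and Map2k3 (-0.26 ± 0.06, limma adjusted p = 0.149). The other 2 probe sets of Rps6ka3 were at 0.01 and -0.04.

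Of 19 measured genes known as AP-1 targets none passed limma's adjusted p, with 9 above and 10 below 0 and a median log2 change of -0.02. The targets Mmp13, Il6, Mmp3 and Cd44 had a mean signal below the 25th percentile of all probe sets. They may read background, where a fall could hardly show. Gja1, the gap junction gene connexin 43, was at 0.25 ± 0.04 (SE; limma adjusted p = 0.0626) and Timp1, an inhibitor of matrix proteases, at -0.36 ± 0.07 (limma adjusted p = 0.0942). Vegfa, named afterwards, was at -0.34 ± 0.09, and Ccnd1, the cyclin D1 gene, at 0.13 ± 0.05. Of 10 heat shock genes none passed, with a median of -0.01. Bag3 was at 0.28 ± 0.10 and Hspa1a at 0.29 ± 0.13. With any 1 of the 4 arrays left out, none of the calls in these pathway lists remained. Without an intensity trend, Dusp4 kept its call and Jdp2, Phlda1, Elk3 and Dusp6 lost theirs, and with the mean of a gene's probe sets Jdp2 and Elk3 lost theirs.

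**Figure D4:**
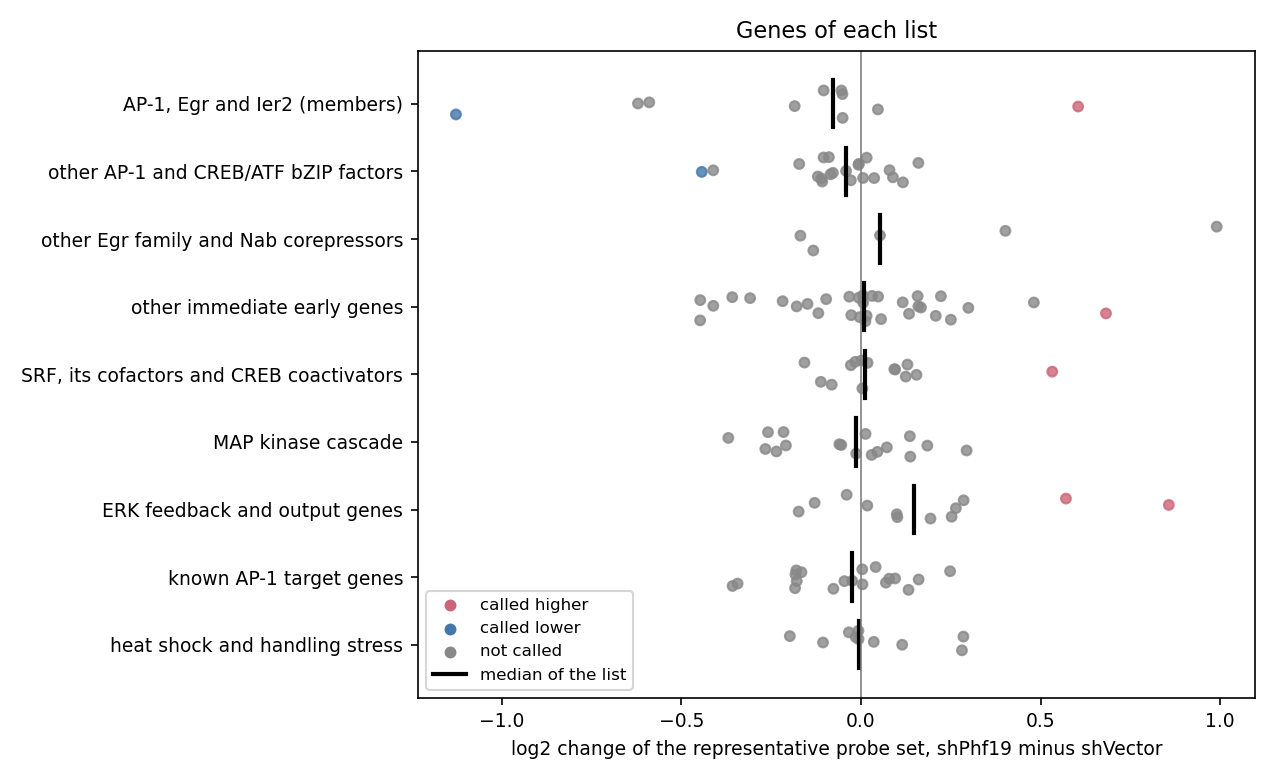
Each point is the log2 change of 1 gene by its brightest probe set, shPhf19 minus shVector; black lines are list medians and vertical scatter within a row has no meaning. Fos and Jun lie furthest out in the top row at -1.13 and 0.60, and the ERK feedback list has its median at 0.15.

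The genes whose profile over the 4 arrays was most like that of Fos, after subtraction of each probe set's mean, were As3mt, Krt8, S100a6, Aph1a and Dsp. Likeness was the Euclidean distance of the log2 profiles among 11181 genes at or above the median signal, and it ran from 0.205 for As3mt to 0.371 for Dsp. As3mt encodes an arsenic methyltransferase, Krt8 a keratin of simple epithelia, S100a6 a calcium-binding protein, Aph1a a subunit of gamma-secretase and Dsp the desmosomal protein desmoplakin. All of them were lower on both shPhf19 arrays, with log2 changes between -0.86 for Aph1a and -1.22 for S100a6. As3mt, Krt8, S100a6, Aph1a and Dsp were also lower on shPhf19 replicate 1 than on replicate 2, by between 0.118 for Dsp and 0.321 for As3mt, smaller gaps than the 0.562 of Fos. Both directions follow from the choice by likeness to Fos and are no separate observation.

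In the whole series 374 probe sets were called higher and 262 lower. Phf19 was at -0.98 ± 0.10 (log2 change ± SE; limma adjusted p = 0.0108) by probe set 1427920_at. By its brighter probe set 1431857_at, which stands for the gene in gene counts, Phf19 was at -0.06 ± 0.12. The groups overlapped there and it was not called. Of 11 markers of F9 embryonal carcinoma cells none passed limma's adjusted p. The pluripotency genes Pou5f1 and Sox2, named afterwards, read 13.78 to 13.87 and 13.11 to 13.18 on the 4 arrays, Nanog was at -0.26 ± 0.05 and Sall4 at 0.17 ± 0.05. Of 11 fibroblast markers none passed either, with Pdgfrb at -0.68 ± 0.14 (limma adjusted p = 0.0923) and Thy1 at 0.46 ± 0.12, and the median signal of that list lay at the 36.6th percentile of probe sets. Of 13 endoderm markers Gata6, Col4a1 and Lamb1 rose (log2 changes 1.19, 1.04 and 0.91) and none fell, beside 1.15% and 0.863% of all genes. In this list 8 were above and 5 below 0, and the list median was 0.27. Both shPhf19 arrays lay above both shVector arrays in 7 of these markers and below in 3, beside 21.3% and 22.2% of all genes. The 3 were Sox7 at -0.24 ± 0.11, Sparc at -0.12 ± 0.06 and Afp at -0.17 ± 0.13, named afterwards. In these bulk samples, fewer cells of a type and less RNA per cell cannot be told apart, and the part of a change in cell types in the values of the AP-1 and Egr genes was not tested.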

How the data were processed

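The submitters deposited 1 table of probe set values per array. They were read as log2 expression that the authors had normalized between arrays before deposit, a scale inferred from the deposited values. Software and genome build: not given in the sources used here. Array medians lay between 5.75 and 5.76. Of 45101 probe sets, 64 controls were left out and 45037 tested without a filter on signal. GEO's platform annotation paired 34945 with 1 gene symbol. A gene was represented by its brightest probe set.

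shPhf19 was compared with shVector (2 arrays each) using limma 3.58.1 in R 4.3.3 (lmFit, eBayes with an intensity trend), with two-sided p-values adjusted by Benjamini-Hochberg over every tested probe set and called under 0.05. SE is limma's moderated error, and SD is over 2 arrays. The sample titles call the arrays of a group biological replicates. Nothing states that these replicates came from separate infections, so p-values cover only the spread of these arrays, whose number limits precision. The test was checked on simulated data.

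The members, gene lists and tests were chosen with earlier results of these data known. Named genes were all members, up to 4 called genes per list and direction (otherwise the 2 with the smallest p), and the 5 genes most like the member with the largest change; others are said to be named afterwards. No probe set was matched to 13 of the listed genes alone, and these were not analysed here. Alternatives were no variance trend, quantile normalization, median centring, leaving out the lowest 25% or 50% of probe sets, a replicate block, each array left out, and the mean of a gene's probe sets. Arrays with the same replicate number tended to deviate in opposite directions (correlation of their deviations over probe sets -0.197). No label pairs the numbers, and no replicate term was used in the main fit. The fit with a replicate block, which called no probe set, is given below.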

Additional observations from a re-analysis of the deposited data

How the results depend on the processing

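The Fos change kept its direction in every alternative run, but its call was lost without an intensity trend, with either block and with any array left out, and Jun 1417409_at lost its call under the replicate block and with any array left out. Without an intensity trend limma called 229 probe sets higher and 151 lower, 0 member probe sets lower, 0 other leucine zipper genes lower, 0 other immediate early genes and 0 SRF-list genes higher, and 1 ERK feedback gene higher (Dusp4). Quantile normalization added 1 immediate early gene lower (Klf2) and 1 AP-1 target higher (Gja1), and Gja1 (1 gene) was also called without the lowest 25% of probe sets. Without the lowest 50%, where fewer probe sets are tested, 2 member probe sets were called lower (Fos and Junb), with 1 Nab gene (Nab1) and Gja1 higher and 1 immediate early gene (Klf2) lower. With the mean of a gene's probe sets, 2 members (Fos and Junb) and 3 immediate early genes (Arc, Atf3 and Klf2) were called lower. So was 1 AP-1 target (Timp1). Fos, Junb, Arc, Atf3, Klf2 and Timp1 each have 1 probe set, so averaging left their values unchanged and only the fit around them differed. The SE of Junb was 0.101 there, beside 0.114 in the main fit. In the same setting 0 SRF-list genes were called higher, Etv4 joined Dusp4 and Dusp6, and Sox17 joined the 3 endoderm genes. Atf3 took the place of Jdp2 among the leucine zipper genes. With a replicate block, the counts of calls over all probe sets, members, leucine zipper, immediate early, SRF, ERK feedback and endoderm lists were all 0, with 3890 probe sets at an unadjusted p under 0.05 against 5708; the samples share only a number. A crossed block (shVector replicate 1 with shPhf19 replicate 2), chosen after seeing the data, called 0 member probe sets lower, 0 SRF-list genes higher and 1 immediate early gene lower. With any 1 array left out every one of these counts ran from 0 to 0, with 2539 to 6942 probe sets at an unadjusted p under 0.05. Those fits leave 1 array in a group, assumed to vary like the other group. Except where a construction is named, the cause was not tested. Median centring changed no call listed here. Dim probe sets limit what can be said of Fosb, Fosl1 and Egr2.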
